A study of Homo sapiens with 9 samples.

Results

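The 8 genes described here encode the reverse transcriptase of telomerase, the shelterin complex and a telomere helicase. They were chosen by symbol as the rows TERT, TERF1, TERF2, TERF2IP, TINF2, POT1, ACD and RTEL1 of the deposited table of normalized counts, and all 8 were found among its 17518 genes. All 8 also passed the filter on low values that left 17514 genes for testing. The cells were COR-L279, an established human small cell lung cancer line of the SCLC-N subtype, labelled wild type. The groups were DMSO, the vehicle, 0.5 µM JQ1 and 1.5 µM JQ1, each for 24 h, with 3 libraries per group that the labels call biological replicates. JQ1 is an inhibitor that keeps BET bromodomain proteins off acetylated histones, and the question of the study was its effect on transcription in these cells. All groups are 1 cell line, so the p-values measure the spread between cultures of that line.

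Telomerase adds DNA repeats to chromosome ends by copying a template in its RNA subunit TERC with the catalytic protein TERT. Most somatic cells keep TERT silent, and most cancer cells transcribe it at a low level. Shelterin is the complex that coats the repeats: TERF1 and TERF2 (the proteins TRF1 and TRF2) bind the double-stranded part, TERF2IP (RAP1) sits on TRF2, TINF2 (TIN2) bridges both arms, and ACD (TPP1) and POT1 hold the single-stranded end. RTEL1 is a DNA helicase that opens the loop into which telomere ends fold.

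The libraries held 60721187 to 88482001 reads in genes, and the lowest read number behind any value of the 8 genes was 192, for TERT. On the second principal component, which held 9.99% of the variance, 0.5 µM replicate 2 lay at -50.6 and the other 8 libraries between -11.3 and 25.2. The imprinted RNA H19 set 3 other libraries apart: replicate 3 at 0.5 µM, with replicates 1 and 2 at 1.5 µM, held 1476 to 2071 normalized counts of it, against 1.04 to 82.8 in the other 6. Of these, the DMSO libraries held 63.8 to 82.8. Levels of the 5 neuroendocrine markers are in FPKM (fragments scaled to transcript length and library size). NEUROD1, the factor that names the subtype, averaged 267 in DMSO, 354 at 0.5 µM and 361 at 1.5 µM, and INSM1, another neuroendocrine factor, 359.8, 351 and 347 in that order. CHGA averaged 526, 385 and 370.4, SYP 87.6, 70.2 and 65.5, and DLL3 29.1, 11.8 and 9.15. Their summed FPKM was 1257 to 1286 in DMSO, 1162 to 1182 at 0.5 µM and 1135 to 1163 at 1.5 µM, and the part of this shift in the results was not tested. The summed FPKM of 9 measured markers of stroma, leukocytes, endothelium and squamous epithelium was 0.79 to 1.29 in DMSO, 0.95 to 3.83 in 0.5 µM and 0.89 to 3.52 in 1.5 µM libraries, with VWF and KRT14 at 0 in all. The highest sums at both doses lay in the 3 libraries high in H19. There COL3A1, a stroma marker, had 2.74 to 3.05 FPKM, against at most 0.50 in the other 6. In bulk RNA, fewer cells of a type and less RNA per cell cannot be told apart.

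The windows directly before the gene starts of TERT, TERF2IP and TINF2, the gene that fell and the pair with the largest increases, are shown because their sequence can be read beside the changes. They are RefSeq sequences of build GRCh38.p14, 250 bases each on the gene's strand. TERT is given for chr5:1295069-1295318, minus strand, TERF2IP for chr16:75647523-75647772, plus strand, and TINF2 for chr14:24242675-24242924, minus strand, the first of its 2 listed starts. Capitals mark the letters CACGTG (an E-box, the motif of MYC and MAX), GGGCGG (a GC box, bound by SP1) and CCGGAA (a motif of ETS factors) on either strand, so that CCGCCC and TTCCGG are the reverse forms.
TERT: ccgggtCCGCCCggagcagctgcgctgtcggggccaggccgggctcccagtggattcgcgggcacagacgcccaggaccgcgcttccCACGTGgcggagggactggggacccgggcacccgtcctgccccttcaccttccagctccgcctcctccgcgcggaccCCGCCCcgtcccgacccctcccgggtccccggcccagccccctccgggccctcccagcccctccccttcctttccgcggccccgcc
TERF2IP: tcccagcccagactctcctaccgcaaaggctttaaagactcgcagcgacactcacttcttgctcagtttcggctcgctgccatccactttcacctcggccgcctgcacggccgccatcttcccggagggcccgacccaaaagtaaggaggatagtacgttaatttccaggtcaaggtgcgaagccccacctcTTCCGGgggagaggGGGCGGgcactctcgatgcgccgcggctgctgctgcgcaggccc
TINF2: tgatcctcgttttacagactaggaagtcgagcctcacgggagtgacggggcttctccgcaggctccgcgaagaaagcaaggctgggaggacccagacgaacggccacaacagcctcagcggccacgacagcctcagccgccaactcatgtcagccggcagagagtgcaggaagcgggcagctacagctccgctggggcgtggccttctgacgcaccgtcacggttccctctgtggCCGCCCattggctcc
The TERT window held an E-box starting at position -163 and GC boxes at -244 and -86, counted from the gene start. The TERF2IP window held a GC box at -44 and an ETS motif at -58, and the TINF2 window a GC box at -15. The window before the other listed TINF2 start held GC boxes at -66 and -45 and ETS motifs at -37 and -8. Of the 8 genes, 6 were in the promoter table (TERT, TERF2IP, TINF2, POT1, ACD and RTEL1), and among these the E-box letters were found in the TERT window only. Of 35116 RefSeq promoter windows of this length, 6.34% held the E-box, 42.6% the GC box and 14.5% the ETS motif. A match is a string of letters and not a binding site.

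TERT was the 1 gene of the 8 that fell, and it fell at both doses. Its normalized read counts, which are reads per gene divided by 1 size factor per library, were 613, 627.5 and 606 in DMSO, 274, 232 and 264 at 0.5 µM and 198, 205 and 228 at 1.5 µM. Every library at 0.5 µM lay below every DMSO library, and every library at 1.5 µM lay below every library at 0.5 µM. TERT (ENSG00000164362.14) averaged 257 ± 21.6 at 0.5 µM against 615.6 ± 10.97 in DMSO (SD, n = 3 each), which was 0.417 of the DMSO mean. Its log2 fold change there was -1.26 (SE 0.085), with a Benjamini-Hochberg adjusted p of 3.40e-07 in limma. At 1.5 µM it averaged 210 ± 15.6 against 615.6 ± 10.97 in DMSO, 0.341 of that mean, with a log2 fold change of -1.55 (SE 0.085) and an adjusted p of 5.05e-08 in limma. At 0.5 µM 7.42% of all tested genes had a lower log2 fold change than TERT, and at 1.5 µM 6.83%.

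Changes of expression were the rule in these cells. At 0.5 µM, 70.0% of all tested genes passed the limma test at an adjusted p of 0.05 (35.3% higher and 34.7% lower), and at 1.5 µM 73.1% (36.9% higher and 36.2% lower). Of the 8 genes, 5 rose, 1 fell and 2 did not pass at 0.5 µM, and 4 rose, 1 fell and 3 did not pass at 1.5 µM. The median log2 fold change of the 8 was 0.18 at 0.5 µM and 0.17 at 1.5 µM, against -0.010 and -0.0030 over all tested genes. For the 6 shelterin genes the medians were 0.24 and 0.21. The JQ1 and DMSO libraries did not overlap for 6 of the 8 at 0.5 µM, against 72.6% of all tested genes, and for 7 of the 8 at 1.5 µM, against 81.7%. These shares among all genes were so large that a count of called genes among 8 does not set them apart.

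**Figure D1:**
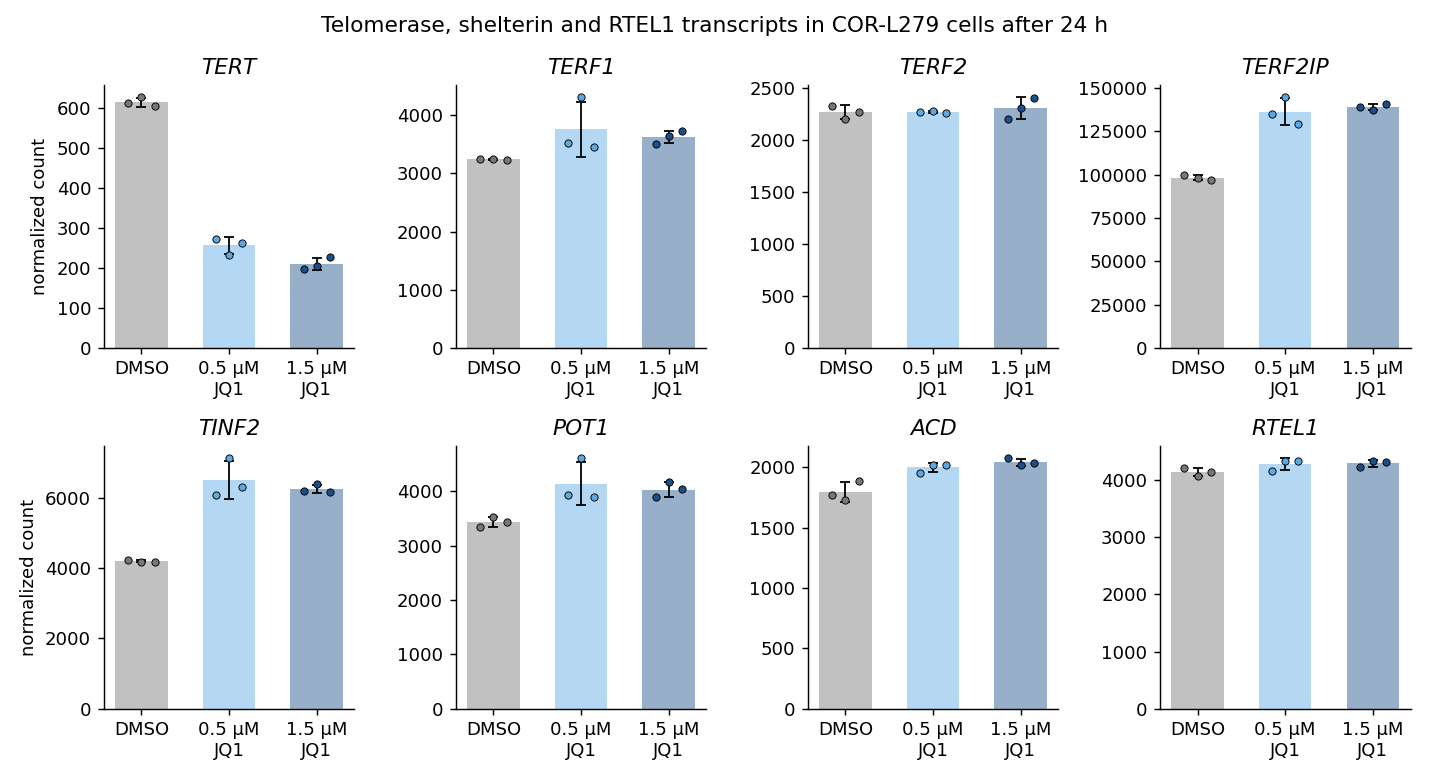
Normalized read counts (vertical axis, each panel with its own scale from 0) of the 8 genes in DMSO, 0.5 µM and 1.5 µM JQ1. Bars show the mean and SD of 3 libraries and points the libraries; TERT is lower at both doses, TERF2IP and TINF2 are higher, and TERF2 stays between 2197 and 2408 in all 9 libraries.

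TERF1 and TERF2, the genes of the pair of shelterin proteins that bind double-stranded repeats, are given next; the difference between them was not tested. TERF1 (ENSG00000147601.9) had 3255, 3241 and 3235 normalized counts in DMSO, 3521, 4308 and 3460.2 at 0.5 µM and 3509, 3644 and 3724 at 1.5 µM. All JQ1 libraries lay above all DMSO libraries, and 0.5 µM replicate 2, the library apart on the second component, was the highest of the 9. The log2 fold change at 0.5 µM was 0.21 (SE 0.071, limma adjusted p = 0.0240), and without 0.5 µM replicate 2 it was 0.11. The call at 0.5 µM was lost under upper-quartile scaling (adjusted p = 0.0572), on FPKM (0.122), in limma without trend (0.0515), with the 6 compared libraries alone (0.0508) and without any 1 of the DMSO libraries (0.0548 to 0.0585). At 1.5 µM TERF1 differed by 0.16 on the log2 scale and did not pass (adjusted p = 0.0647 in limma, 1.48e-04 to 0.489 over the alternatives); it passed with library weights, in DESeq2, with the 6 compared libraries and without 0.5 µM replicate 2 or 3. The 5 pseudogenes TERF1P1 to TERF1P5 were measured at a mean of at most 0.389 FPKM each, and how the counting split reads with them is unknown.

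TERF2 (ENSG00000132604.6) had 2330, 2197 and 2271 normalized counts in DMSO, 2266, 2274 and 2255 at 0.5 µM and 2205, 2308 and 2408 at 1.5 µM, so that the groups overlapped. Its log2 fold change was -0.00051 at 0.5 µM (95% interval -0.092 to 0.091, adjusted p = 0.991 in limma). At 1.5 µM it was 0.025 (95% interval -0.066 to 0.12, adjusted p = 0.596 in limma). Changes of a size within these intervals could not be told from 0 with 3 libraries a group.

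TERF2IP, whose protein RAP1 reaches telomeres through TRF2, rose at both doses. It also had the highest FPKM of the 8, at rank 100 of 57820 genes by mean FPKM. TERF2IP (ENSG00000166848.5) had 99685, 98189 and 96887 normalized counts in DMSO, 135289, 144571 and 129352 at 0.5 µM and 139244, 137123 and 140818 at 1.5 µM. The lowest JQ1 library stood well above the highest DMSO library, and 0.5 µM replicate 2 was the highest library. The mean at 0.5 µM was 1.39 times that of DMSO (log2 fold change 0.47, SE 0.040, adjusted p = 1.83e-06 in limma). At 1.5 µM it was 1.42 times that of DMSO (log2 fold change 0.50, SE 0.040, adjusted p = 8.50e-07 in limma). With 1 library left out the log2 fold change at 0.5 µM was 0.43 to 0.51.

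TINF2, the bridge between the double-strand binders and the POT1 arm, had the largest fold increase of the 8. TINF2 (ENSG00000092330.11) had 4237, 4193 and 4184 normalized counts in DMSO, 6095, 7139 and 6316 at 0.5 µM and 6194, 6407 and 6190.1 at 1.5 µM. The JQ1 and DMSO libraries did not overlap, and 0.5 µM replicate 2 was again the highest. The mean at 0.5 µM was 1.55 times that of DMSO (log2 fold change 0.63, SE 0.052, adjusted p = 1.53e-06 in limma), and at 1.5 µM 1.49 times (0.57, SE 0.052, adjusted p = 2.32e-06 in limma). Without 0.5 µM replicate 2 the value at 0.5 µM was 0.56.

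POT1 and ACD, the partners at the single-stranded end, rose by smaller amounts. POT1 (ENSG00000128513.10) had 3351, 3529 and 3436 normalized counts in DMSO, 3932, 4613 and 3895 at 0.5 µM and 3895, 4171 and 4041 at 1.5 µM, with no overlap between JQ1 and DMSO libraries. Its mean was 1.21 times that of DMSO at 0.5 µM (log2 fold change 0.27, SE 0.061, adjusted p = 0.00272 in limma) and 1.17 times at 1.5 µM (0.23, SE 0.061, adjusted p = 0.00580). Without 0.5 µM replicate 2 the value at 0.5 µM was 0.19. The call at 1.5 µM was lost on FPKM (log2 fold change 0.22, adjusted p = 0.0897 in limma), with little change in size. Without the 3 libraries high in H19, which left only replicate 3 at 1.5 µM, the log2 fold change there was 0.23. An antisense transcript, POT1-AS1, averaged 0.836 FPKM over the 9 libraries.

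ACD (ENSG00000102977.9) had 1771, 1725 and 1885 normalized counts in DMSO, 1957, 2019 and 2021 at 0.5 µM and 2076, 2017 and 2036 at 1.5 µM. The JQ1 libraries all lay above the DMSO libraries, though by a narrow margin. The mean was 1.11 times that of DMSO at 0.5 µM (log2 fold change 0.16, SE 0.041, adjusted p = 0.00626 in limma) and 1.14 times at 1.5 µM (0.19, SE 0.041, adjusted p = 0.00188). On FPKM the log2 fold changes of ACD were smaller, 0.077 at 0.5 µM (adjusted p = 0.285 in limma) and 0.036 at 1.5 µM (adjusted p = 0.611), and neither passed. Without the 3 libraries high in H19 the log2 fold changes on normalized counts kept their size, 0.15 and 0.18. The value at 0.5 µM did not pass (adjusted p = 0.0549 in limma). At 1.5 µM only replicate 3 was left, so no call is given there. RLTPR, which overlaps ACD on the opposite strand in GENCODE 29 (there named CARMIL2), had log2 fold changes of -1.55 at 0.5 µM and -1.99 at 1.5 µM. Per the labels the kit was stranded, but no source used here says whether the counting used strand, which leaves the values of ACD uncertain.

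RTEL1 (ENSG00000258366.3) had 4213, 4083 and 4154 normalized counts in DMSO, 4172, 4344.5 and 4348 at 0.5 µM and 4234, 4337 and 4325 at 1.5 µM. The 0.5 µM libraries overlapped those of DMSO, and the 1.5 µM libraries lay just above them. Its log2 fold change was 0.047 at 0.5 µM (95% interval -0.022 to 0.12, adjusted p = 0.201 in limma) and 0.051 at 1.5 µM (-0.019 to 0.12, adjusted p = 0.166). With estimated library weights the value at 1.5 µM passed (0.068, adjusted p = 0.0149 in limma). RTEL1-TNFRSF6B, a read-through transcript on the same strand that shares sequence with RTEL1, rose by 0.41 at 0.5 µM and 0.60 at 1.5 µM on the log2 scale, with 1200.3 mean normalized counts in DMSO, 1603 at 0.5 µM and 1820.3 at 1.5 µM. TNFRSF6B itself, the decoy receptor gene at the end of that transcript, was listed at 0 FPKM in all 9 libraries.

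The doses were then compared directly. Between 1.5 µM and 0.5 µM, 12.7% of all tested genes passed the limma test (4.66% higher and 8.09% lower), and 0 of the 8 did; edgeR and DESeq2 also called 0, and 1 of the 8, TERT, had an unadjusted p under 0.05 in limma. At a share of 12.7%, a count of 0 among 8 does not set these genes apart. TERT differed by -0.29 on the log2 scale at 1.5 µM against 0.5 µM (95% interval -0.47 to -0.097), with an unadjusted p of 0.00709 and an adjusted p of 0.0534 in limma. It was the 1 gene of the 8 whose groups did not overlap between the doses, against 33.7% of all tested genes, and 28.7% of these had an unadjusted p under 0.05. It passed with a minimum of 50 normalized counts (adjusted p = 0.0498), with library weights (0.00217) and without 0.5 µM replicate 2 (0.0107), and its adjusted p ranged from 0.00217 to 0.599 over the alternatives. For the other 7 genes the adjusted p was 0.516 to 0.953 in limma. The 95% intervals of their differences ran from -0.21 to 0.11 for TERF1, -0.059 to 0.12 for TERF2IP, -0.17 to 0.061 for TINF2 and -0.17 to 0.10 for POT1 on the log2 scale.

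**Figure D2:**
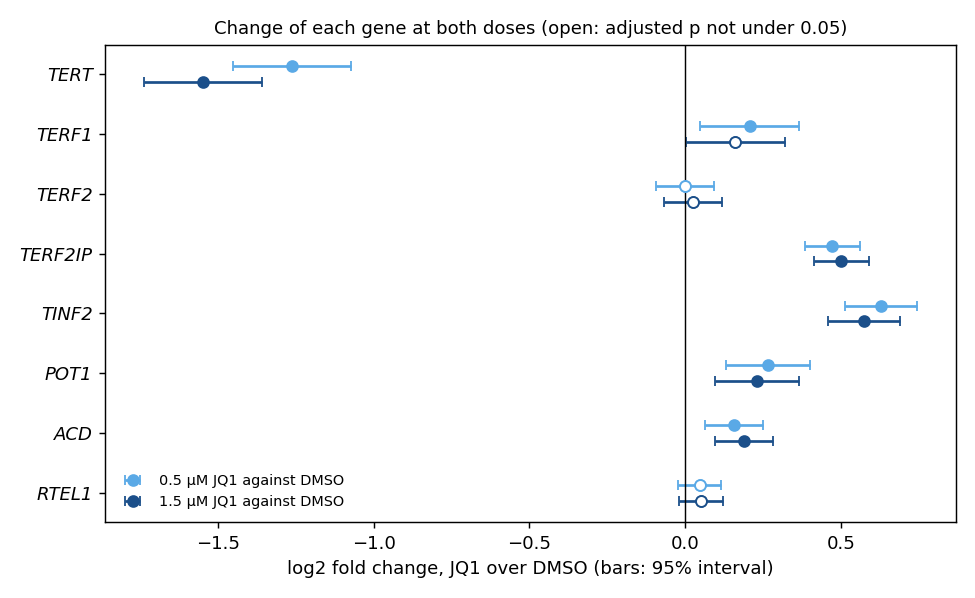
Log2 fold change against DMSO of the 8 genes at 0.5 µM and 1.5 µM JQ1, with 95% intervals from limma over 9 libraries; open symbols did not pass at an adjusted p of 0.05. TERT stands at -1.26 and -1.55, TINF2 and TERF2IP between 0.47 and 0.63, and TERF2 and RTEL1 near 0.

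Levels can be set side by side between genes only per length, for which the authors' FPKM were used. In DMSO the order was TERF2IP (736 ± 12.2 FPKM), TINF2 (38.4 ± 1.06), POT1 (25.2 ± 1.51), TERF1 (23.1 ± 0.652), ACD (18.9 ± 1.31), RTEL1 (16.2 ± 0.667), TERF2 (14.4 ± 0.494) and TERT (2.80 ± 0.1; SD, n = 3 each). The libraries of neighbours in this order did not overlap in DMSO, but the lowest POT1 library (23.85 FPKM) and the highest TERF1 library (23.79) nearly met. At 0.5 µM POT1 and TERF1 overlapped, and at 1.5 µM RTEL1 and TERF2 did. The order of the means was the same in all 3 groups.

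TERT had 2.90, 2.80 and 2.70 FPKM in DMSO, 1.26, 1.12 and 1.69 at 0.5 µM and 0.81, 1.08 and 1.23 at 1.5 µM, without overlap between JQ1 and DMSO libraries. Unlike on normalized counts, the 0.5 µM and 1.5 µM libraries overlapped on FPKM. TERC, the RNA subunit that carries the template, was not in the table of normalized counts and had 0.22, 0.58 and 0.50 FPKM in DMSO, 0.44, 0.53 and 0.48 at 0.5 µM and 0.54, 0.88 and 0.37 at 1.5 µM. The TERC groups overlapped at both doses, and TERC is a short RNA whose FPKM rests on few fragments.

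**Figure D3:**
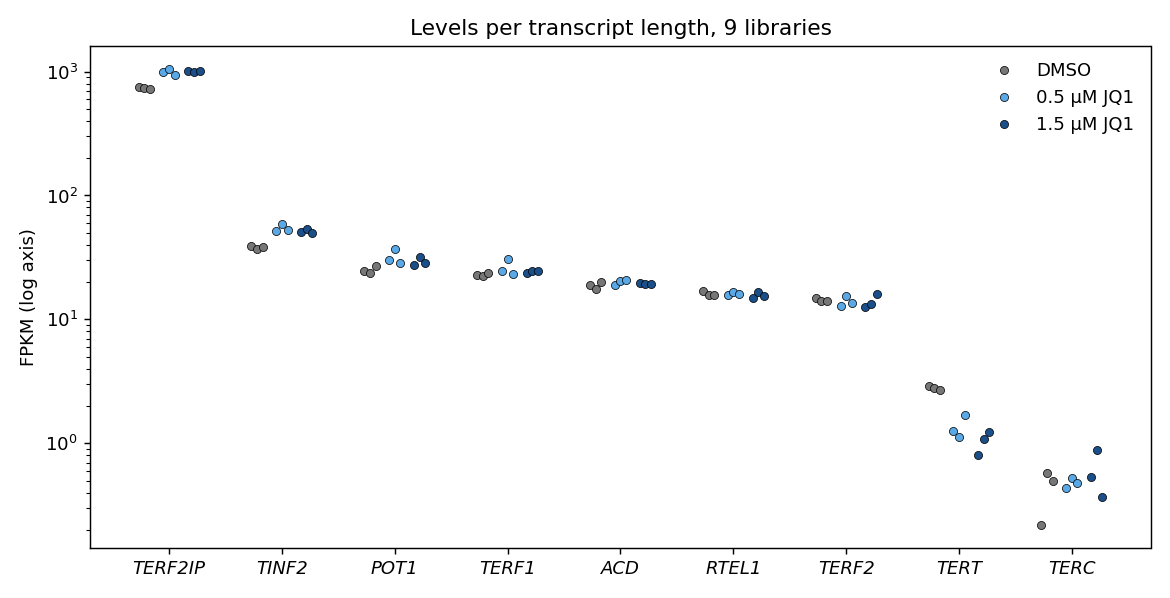
FPKM of the 8 genes and TERC on a log10 axis in DMSO, 0.5 µM and 1.5 µM JQ1; points are libraries. TERF2IP lies far above TINF2, the next gene, and TERT and TERC lie lowest.

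Within the shelterin transcripts, TERF2IP took most of the summed FPKM in every group. Its share was 86.0% ± 0.516 in DMSO, 87.2% ± 0.553 at 0.5 µM and 87.8% ± 0.442 at 1.5 µM (SD, n = 3 each). TERF2IP stood at 51.1 ± 1.03 times the FPKM of TERF2, the gene of its binding partner, in DMSO, at 71.9 ± 4.62 times at 0.5 µM and at 71.9 ± 8.73 times at 1.5 µM. Among the other 5 subunits, TINF2 took 32.0% ± 0.637 in DMSO, 37.2% ± 0.754 at 0.5 µM and 37.03% ± 0.904 at 1.5 µM, while TERF2 took 12.02% ± 0.526, 9.47% ± 0.258 and 10.1% ± 1.30 in the same order of doses. The FPKM of all 6 subunits summed to 855 ± 11.9 in DMSO, 1139 ± 70.5 at 0.5 µM and 1136 ± 9.93 at 1.5 µM. Without TERF2IP the sums were 119.9 ± 4.21, 146 ± 14.3 and 138 ± 4.10 in the same order of doses. These are shares of transcript and say nothing of the proteins.

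The high level of TERF2IP was set beside its chromosomal neighbours, a wider set than the listed ones that was chosen after values were seen; the gene order is that of RefSeq on GRCh38.p14. KARS, the lysyl-tRNA synthetase gene that overlaps TERF2IP on the opposite strand in GENCODE 29, averaged 908 ± 7.66 FPKM in DMSO, 700 ± 36.5 at 0.5 µM and 669 ± 5.61 at 1.5 µM. KARS fell by 0.33 at 0.5 µM and by 0.38 at 1.5 µM on the log2 scale (limma adjusted p = 1.64e-05 and 4.76e-06), where TERF2IP rose. Further along on the same side, ADAT1, a tRNA deaminase gene, rose by 0.97 and 1.15 on the log2 scale at 0.5 and 1.5 µM, and GABARAPL2, an autophagy gene, by 0.41 and 0.41. GABARAPL2 had 649 ± 12.3 FPKM in DMSO and rank 125 of 57820 by mean FPKM, KARS rank 130 and TERF2IP rank 100. TMEM231, the next gene, had 15.3 ± 0.257 FPKM in DMSO, and CNTNAP4, the nearest gene measured on the other side, 0.733 ± 0.155. Whether reads of KARS were counted for TERF2IP was not tested.

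**Figure D4:**
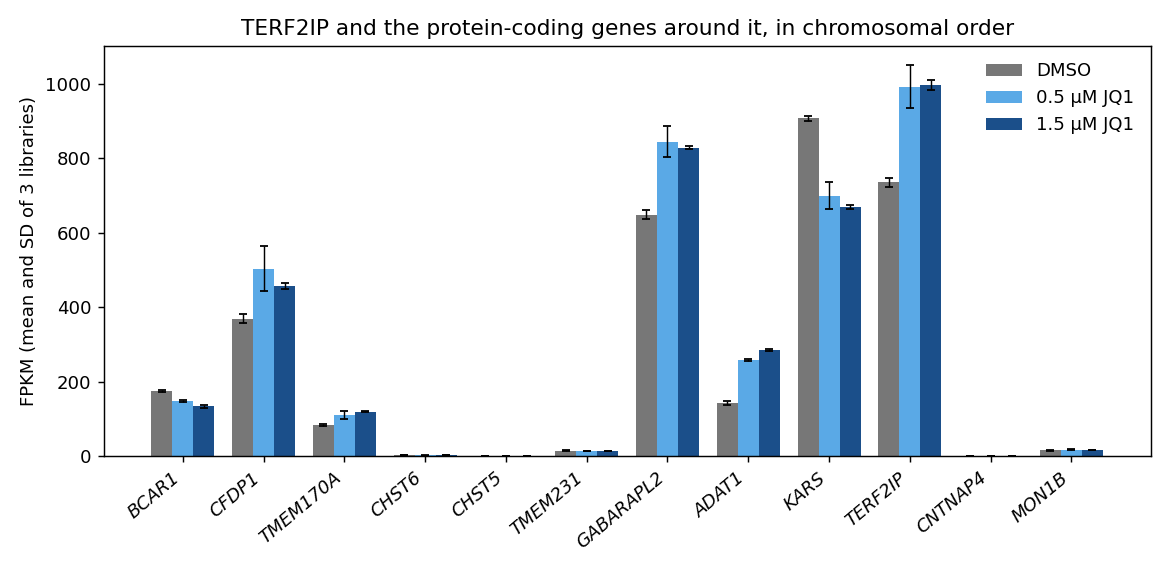
FPKM of the measured genes around TERF2IP in chromosomal order (horizontal axis), as mean and SD of 3 libraries in DMSO, 0.5 µM and 1.5 µM JQ1. TERF2IP, KARS and GABARAPL2 reach 649 to 998 FPKM, KARS is lower with JQ1, and TERF2IP and GABARAPL2 are higher.

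The genes next to TERT were read out too. CLPTM1L, a membrane protein gene on one side, fell by 0.26 at 0.5 µM and by 0.22 at 1.5 µM on the log2 scale, with 258 ± 2.64 FPKM in DMSO. SLC6A18, a transporter gene on the other side, fell at both doses (log2 fold changes -1.44 and -2.15), with 120 mean normalized counts in DMSO, 43.3 at 0.5 µM and 26.2 at 1.5 µM. SLC6A19, the transporter gene beyond it, had 54.6, 5.94 and 3.93 mean normalized counts in the same order of doses (log2 fold changes -3.01 and -3.52). Not all genes around TERT fell: SLC6A3, a transporter gene beyond CLPTM1L, rose by 0.42 at 0.5 µM and 0.41 at 1.5 µM on the log2 scale (limma adjusted p = 2.04e-04 and 1.95e-04). NKD2, a Wnt pathway gene beyond SLC6A19, rose by 1.38 and 1.44 (limma adjusted p = 4.76e-08 and 2.08e-08). SLC12A7, between SLC6A19 and NKD2, fell by 0.53 and by 0.66, and TRIP13, beyond NKD2, by 0.66 and by 0.82. Among other genes around TERT, MRPL36 fell by 0.21 and by 0.29, while BRD9 rose by 0.085 and 0.12 and LPCAT1 by 0.14 and 0.092. The list of neighbours and overlapping genes of the 8 did not hold SLC6A3, NKD2, SLC12A7, TRIP13, MRPL36, BRD9 or LPCAT1. Of its 21 tested genes, 6 rose, 10 fell and 5 did not pass at each dose. Among all tested genes 70.0% were called at 0.5 µM (35.3% higher, 34.7% lower) and 73.1% at 1.5 µM (36.9% higher, 36.2% lower). RLTPR beside ACD and NFAT5, an osmotic stress factor gene near TERF2, were among the listed genes with the largest changes. NFAT5 rose by 1.01 at 0.5 µM and 1.36 at 1.5 µM on the log2 scale.

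Around telomerase, the genes for the RNA subunit's protein partners and maturation mostly fell. Of 17 tested genes of that list, 13 fell, 2 rose and 2 did not pass at 0.5 µM, while at 1.5 µM 15 fell and 2 rose, with medians of -0.25 and -0.29 on the log2 scale. Among all tested genes 34.7% were lower at 0.5 µM and 36.2% at 1.5 µM, with medians of -0.010 and -0.0030. GAR1, a protein of the H/ACA particle that TERC shares with many small nucleolar RNAs, fell by 0.92 at 0.5 µM and by 1.05 at 1.5 µM on the log2 scale. DKC1, the gene of dyskerin, which binds TERC in the same particle, had 24401 mean normalized counts in DMSO, 16235 at 0.5 µM and 15574 at 1.5 µM (log2 fold changes -0.59 and -0.65). NOP10, also a protein of that particle, fell by 0.38 and by 0.57. The risers were PAPD5, a poly(A) polymerase that tags TERC for decay, at 0.97 and 1.03, and PARN, the deadenylase that removes such tails, at 0.32 and 0.30. Between the doses 0 of the 17 passed in limma, against 12.7% of all tested genes, so this count does not set them apart.

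The list for the CST complex, which binds the single strand and directs its fill-in by DNA polymerase alpha and primase, had 13 tested genes. Of these, 8 were higher and 2 lower at 0.5 µM, while 8 were higher and 1 lower at 1.5 µM, with medians of 0.20 and 0.26 on the log2 scale. Among all tested genes 35.3% were higher and 34.7% lower at 0.5 µM, and 36.9% higher and 36.2% lower at 1.5 µM. CTC1, the large CST subunit, had 1682 mean normalized counts in DMSO, 2891 at 0.5 µM and 3226 at 1.5 µM (log2 fold changes 0.78 and 0.94). OBFC1, the gene of the subunit STN1, rose by 0.33 at each dose, and TEN1, the smallest subunit, differed by 0.16 and 0.17 without passing. The primase genes PRIM1 and PRIM2 rose by 0.40 and 0.57 at 1.5 µM, and PIF1, a helicase gene, fell by 0.25 at 0.5 µM and by 0.37 at 1.5 µM.

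Of 30 partners of shelterin and end-processing factors, 15 rose, 5 fell and 10 did not pass at each dose, with medians of 0.13 and 0.18 on the log2 scale; the share called was near the 70.0% and 73.1% of all tested genes. SLX4, a nuclease scaffold that binds TRF2, rose by 1.00 at 0.5 µM and 1.21 at 1.5 µM, and SAMHD1, a dNTP hydrolase with a role in end resection, by 0.77 and 1.00. NBN, a subunit of the MRN break sensor that binds TRF2, rose by 0.76 and 0.90, and SMG6, a nonsense-mediated decay nuclease related to the yeast telomerase subunit Est1, by 0.66 and 0.83. Of 27 genes for H3.3 chaperones and telomeric chromatin, 13 were higher and 9 lower at 0.5 µM, while 12 were higher and 11 lower at 1.5 µM, with medians of 0.11 and 0.067, against 35.3% higher and 34.7% lower among all tested genes at 0.5 µM and 36.9% and 36.2% at 1.5 µM. The partners of the H3.3 chaperone moved apart: at 1.5 µM ATRX rose by 0.56 and DAXX fell by 0.61 on the log2 scale. H3F3A, an H3.3 gene, rose by 0.76 there, CBX5, a heterochromatin protein gene, by 0.75, and the genes ZNF827 and SMARCAL1, whose products act at telomeres kept without telomerase, fell by 1.35 and by 0.94.

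**Figure D5:**
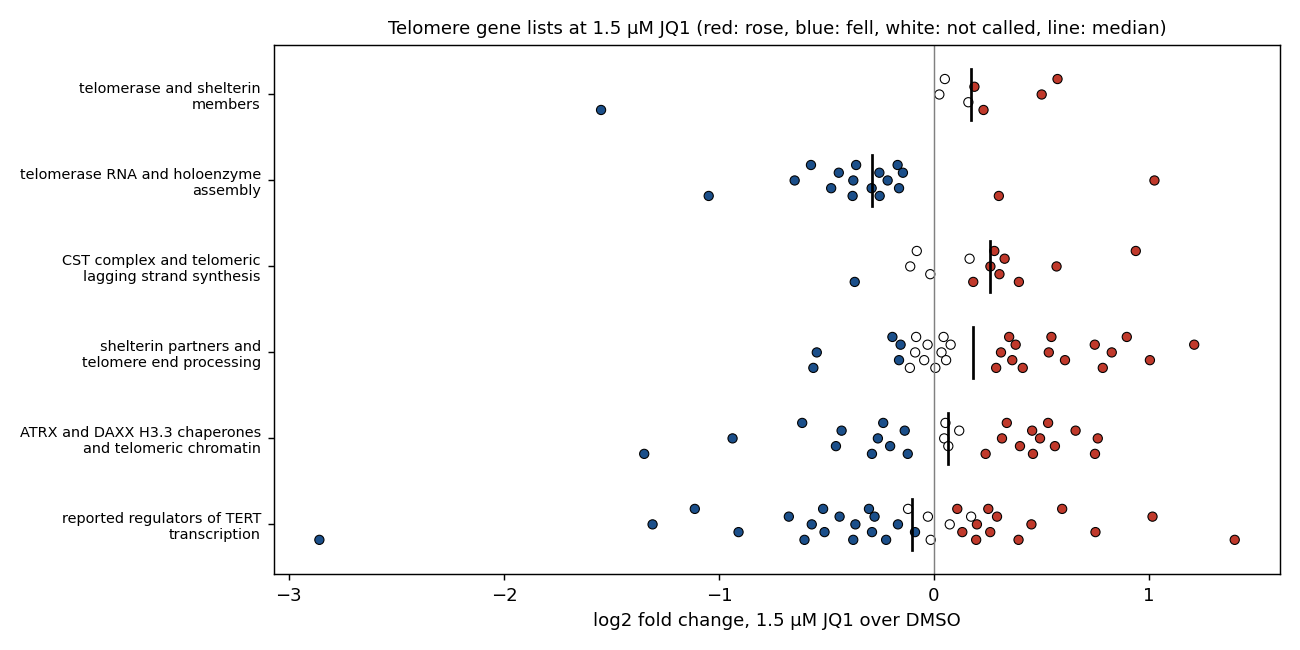
Log2 fold change at 1.5 µM JQ1 against DMSO (horizontal axis) of the 8 genes and of the tested genes of 5 related lists, 1 point per gene. In the telomerase RNA and assembly list 15 of 17 genes fell, and in the CST list 8 of 13 rose.

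Of 36 tested genes whose products are reported to regulate TERT transcription, 15 fell and 12 rose at 0.5 µM, while at 1.5 µM 18 fell and 13 rose, with medians of -0.074 and -0.10 on the log2 scale. Among all tested genes 34.7% were lower and 35.3% higher at 0.5 µM, and 36.2% lower and 36.9% higher at 1.5 µM. MYC, an activator through E-boxes, had 31636 ± 76.2 normalized counts in DMSO, 22559 ± 216 at 0.5 µM and 19819 ± 159 at 1.5 µM (SD, n = 3 each), log2 fold changes of -0.49 and -0.67. MXD1, which competes with MYC for MAX, rose by 0.70 and 0.75, and MAX fell by 0.17 and by 0.30. Other genes of this network went the other way: MYCL, a relative of MYC, rose by 0.67 and 0.60, and MNT, a repressor that pairs with MAX, fell by 0.15 and by 0.17. TFAP2B, an AP-2 factor gene, had 142, 30.8 and 19.3 mean normalized counts in DMSO, 0.5 and 1.5 µM libraries (log2 fold changes -2.21 and -2.86). KLF4, a zinc finger factor gene, had 129, 257 and 341 in the same order (0.99 and 1.40). The ETS genes ETV4 and ETV1 fell by 1.31 and by 1.11 at 1.5 µM on the log2 scale, while ETV5, of the same subfamily, rose by 1.02. Whether any of these moved TERT was not tested.

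The genes whose profile over the 9 libraries was most like that of each of the 8 were ranked by Pearson correlation of log2(normalized count + 1) among 13286 genes. For TERT these were HEATR2 (r = 0.999), FOXP2 (0.998) and SEMA3E (0.998), and for TERF2IP ASH2L, CMAS and CEP19 (0.999 each). For TINF2 they were VIPAS39 (0.999), CDKN2C (0.997) and TTC13 (0.997). The libraries fall into DMSO and JQ1 groups, so any gene with a large step between them scores high: 2499 genes exceeded 0.95 with TERT, 2560 with TERF2IP and 1912 with TINF2. For POT1 and TERF1, RAD17 (0.995) and NUF2 (0.995) led, and 291 and 110 genes exceeded 0.95. The highest library of both was 0.5 µM replicate 2, as it was for TERF2IP and TINF2. For ACD, FAM86C1 led at 0.983, with 82 genes over 0.95. The closest gene reached 0.949 with RTEL1 (LRRC37B) and 0.839 with TERF2 (ZNF177), so that 0 genes exceeded 0.95 for either.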

How the data were processed

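Per the labels, total RNA of COR-L279 cells was made into stranded TruSeq libraries. Per the submitters' processing notes, cutadapt, STAR, RSEM and build hg19 were used; none of these sources states versions, the annotation release or the strand setting. The authors' deposited normalized counts are a signal, gene counts scaled by size factors of DESeq2, going by the table's name: dividing out 1 factor per library returned whole reads for 100.0% of the values (tolerance 0.001). The authors also deposited FPKM values for 57820 genes. Libraries held 60721187 to 88482001 reads in genes.

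The test was limma 3.58.1 (R 4.3.3) with trend on log2 of the normalized count + 1, fitted once to the 9 libraries without a replicate block. Of all genes, 17514 reached 10 normalized counts in 3 or more libraries and were tested. Tests were two-sided, with Benjamini-Hochberg adjustment over all genes within a comparison and a threshold of 0.05. Fold changes of low genes are understated on this scale, and all are relative to the bulk of genes. The doses share their DMSO libraries. In simulated data 50 genes were changed per fold, and most genes were left unchanged. For 0.5 µM the test recovered 56% of the genes changed 1.5-fold and 86% of those changed 2-fold. For 1.5 µM it recovered 68% and 92%. False calls numbered 3 for 0.5 µM, where 17435 genes were tested, and 8 for 1.5 µM, where 17438 were. In the real comparisons 70.0% and 73.1% of genes passed, which makes the adjusted threshold less strict there. The simulated rates therefore do not describe the real comparisons.

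The 8 genes and the lists were chosen with earlier results of these data known. Named are the 8 genes, the 7 genes TERC, DKC1, CTC1, MYC, CLPTM1L, RTEL1-TNFRSF6B and TNFRSF6B, up to 4 genes per list with a mean of at least 20 normalized counts and the largest changes among those passing at 1.5 µM, and the 3 genes most correlated with each of the 8 (mean of at least 100). Other genes (OBFC1, TEN1, PARN, ATRX, DAXX, MAX, MXD1, MYCL, MNT, ETV5, H19, POT1-AS1, the TERF1 pseudogenes and the neighbours of TERF2IP) were named after their values were seen. The same holds for SLC6A3, NKD2, SLC12A7, TRIP13, MRPL36, BRD9 and LPCAT1 around TERT. NEUROD1, INSM1, CHGA, SYP, DLL3, COL3A1, VWF and KRT14 are from a marker list. Alternatives were pseudocounts of 0.1 and 5, no filter or a minimum of 50, TMM and upper-quartile scaling, FPKM (0.1 added before log2, a minimum of 0.5 in 3 libraries), no trend, library weights, DESeq2 1.42.0 and edgeR 4.0.16 on whole reads, the 6 compared libraries, a replicate block, each library left out, and the 3 libraries with H19 and SLC2A3 left out.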

Additional observations from a re-analysis of the deposited data

How the results depend on the processing

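TERT, TERF2IP and TINF2 kept their direction and call against DMSO under every alternative listed in the processing, TERT between -1.32 and -1.01 at 0.5 µM and between -1.61 and -1.36 at 1.5 µM on the log2 scale. Over 78 single-gene results, 1744 of 1790 alternative values kept direction and call. The 78 also cover other named genes, many picked for large changes that passed at 1.5 µM, so the total does not describe the 8 alone. Every value that changed direction or call belonged to the 8 genes. On FPKM 3 of the 8 genes rose at 0.5 µM and 2 at 1.5 µM. The share of all genes called on FPKM is not given here, so these counts do not set the 8 apart. Without the 3 libraries high in H19 only replicate 3 was left at 1.5 µM, so counts of genes passing there are not given. Leaving out 1 library gave 4 to 5 risers among the 8 at either dose, 5810 to 6461 genes higher and 5523 to 6383 lower at 0.5 µM, and 6063 to 7016 higher and 5918 to 6986 lower at 1.5 µM.

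Between the doses, 816 genes were higher and 1417 lower. The numbers were 174 and 718 on FPKM, 2457 and 2781 with library weights, 434 and 689 with 6 libraries, 0 and 48 without the 3 libraries with H19, and 241 to 1342 and 761 to 1875 with 1 library left out; without trend 504 were higher. Of the 8 genes 1, TERT, was lower with a minimum of 50 and with library weights, and 0 to 1 with 1 library left out.

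Sign changes were found only for differences that did not pass. TERF2 at 0.5 µM was 0.0246 with library weights, 0.0027 without the 3 libraries high in H19 and -0.0225 to 0.0197 with 1 library left out. TERF2 at 1.5 µM was -0.025 under upper-quartile scaling, -0.046 on FPKM and -0.0061 to 0.057 with 1 library left out. RTEL1 at 0.5 µM was -0.0067 under upper-quartile scaling and -0.0052 on FPKM, and at 1.5 µM -0.042 on FPKM. Between the doses, library weights gave 0.045 for TERF1, 0.027 for TINF2 and 0.042 for POT1, and FPKM -0.040 for ACD and -0.036 for RTEL1. Leaving out 1 library there gave -0.10 to 0.054 for TERF1, -0.0056 to 0.058 for TERF2, -0.0083 to 0.072 for TERF2IP, -0.10 to 0.013 for TINF2, -0.078 to 0.044 for POT1 and -0.016 to 0.015 for RTEL1. The cause was not tested.

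Same-numbered libraries did not deviate together (correlations of -0.39 to 0.13), so no shared effect of the replicate number was seen. With 3 libraries a group this cannot tell whether same-numbered samples were handled together. With the replicate block TERT had an adjusted p of 4.03e-06 at 0.5 µM in limma. There 5 of the 8 genes rose, and 4 at 1.5 µM, and no call among the 8 changed. No scaling moved the median of all genes by over 0.1 on the log2 scale. Shares by coding length were not run, as no protein lengths were used here.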
